A study of Mus musculus with 6 samples.

Results

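The 5 collagen genes Col2a1, Col9a1, Col9a2, Col11a1 and Col27a1 encode chains of the fibrillar network of cartilage, and the windows of Runx2 occupancy that 2 peak lists placed nearest to them were examined. A window was taken when its list named one of the 5 genes as nearest, or when it overlapped such a window of the other list by at least 1 bp. This gave 8 of the 2000 windows, 6 of the 1000 in normal culture and 2 of the 1000 in culture with interleukin-1β (IL-1β), and they fell on 6 sites. Each of the 5 genes had at least 1 window, and 2 of them had one in the IL-1β list. The windows were thus chosen by their presence in the lists, a measured outcome, so their number and rank are a description and carry no test.

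The windows came from chromatin immunoprecipitation with sequencing (ChIP-seq) on primary chondrocytes from 5-day-old mice labelled Runx2-Biotin-FLAG-tag and C57BL/6, in which the tagged Runx2 protein is recovered with an anti-FLAG antibody. The series has 6 libraries (anti-FLAG, IgG and input DNA, 1 of each per condition), and the 2 lists come from the 2 anti-FLAG libraries. The cells of both conditions carry the same tag, so by their labels the groups differ in IL-1β alone, an inflammatory cytokine given at 1 ng per µL in the labels and at the same number per mL in the study's methods. With 1 library per condition there is no replicate error and no test, and each difference given here is between those libraries. The lists hold positions and no expression values, read counts or peak heights, so the depth behind a window is unknown and the chondrocyte identity of the cells could not be checked from marker genes.

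Collagen II is the main fibril of cartilage, collagen XI forms its core and limits its thickness, and collagen IX sits on its surface and links it to the surrounding matrix. Collagen XXVII is a separate fibrillar collagen of cartilage that is prominent where chondrocytes mature. Runx2 is the transcription factor that drives chondrocytes toward hypertrophy and binds DNA through its Runt domain at the word TGTGGT or TGCGGT, called the Runx motif here and searched on both strands.

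The 6 sites are printed below because the place of the Runx motif within them differed between them. Each sequence is the plus strand of mm9, 5′ to 3′, and capitals mark TGTGGT or TGCGGT and the weaker words TGTGGC or TGCGGC, or their reverse complements. For Col2a1, Col27a1 and the Col9a1 intron, bases to the right of the window were added to show a motif that lay beyond its edge.
Col2a1, chr15:97835195-97835375, window and 80 bases to its right: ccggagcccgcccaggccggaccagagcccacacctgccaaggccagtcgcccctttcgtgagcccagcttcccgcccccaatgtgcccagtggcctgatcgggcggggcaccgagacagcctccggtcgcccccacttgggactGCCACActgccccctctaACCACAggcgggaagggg
Col9a1 upstream, chr1:24176468-24176568, window: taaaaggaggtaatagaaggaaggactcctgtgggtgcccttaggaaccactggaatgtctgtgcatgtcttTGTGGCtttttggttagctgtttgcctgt
Col9a1 intron, chr1:24238336-24238443, window and 7 bases to its right: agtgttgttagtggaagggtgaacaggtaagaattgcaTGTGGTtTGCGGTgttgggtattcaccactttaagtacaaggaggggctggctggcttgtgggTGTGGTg
Col9a2, chr4:120713734-120713834, window: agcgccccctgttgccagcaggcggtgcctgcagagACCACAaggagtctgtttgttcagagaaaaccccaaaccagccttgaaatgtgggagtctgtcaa
Col11a1, chr3:113731218-113731369, windows of both conditions joined: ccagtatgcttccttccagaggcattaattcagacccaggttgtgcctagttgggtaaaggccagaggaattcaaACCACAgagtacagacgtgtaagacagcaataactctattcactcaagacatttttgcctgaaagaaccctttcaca
Col27a1, chr4:62972728-62972908, window and 80 bases to its right: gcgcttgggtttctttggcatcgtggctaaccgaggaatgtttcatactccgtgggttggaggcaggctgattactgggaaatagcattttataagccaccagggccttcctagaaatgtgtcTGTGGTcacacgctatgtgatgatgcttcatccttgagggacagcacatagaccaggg

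The windows were numbered in each list, and the number was read as a rank within that list, although the lists do not state that the numbers run in order of peak strength. The sets of called peaks behind the lists were of unequal size, larger in normal culture, so ranks in different lists are not on a common scale. In normal culture the collagen windows ran from rank 358 (Col27a1) through 398 (Col2a1), 614 (Col11a1), 615 and 835 (both Col9a1) to 943 (Col9a2), with a median rank of 614.5. In IL-1β they stood at rank 644 (Col11a1) and 650 (Col27a1). Of the 6 in normal culture 2 lay in the upper 500, and neither of the 2 in IL-1β did.

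Of the 6 windows in normal culture, those of Col27a1 and Col11a1 overlapped a window of the IL-1β list, by 95 and 50 bp. Those of Col2a1, Col9a1 (both) and Col9a2 did not, and the closest IL-1β window to any of these 4 was 65.6 kb away, at Col9a2. Over the whole list 551 of 1000 windows were shared, or 55.1%, and between ranks 358 and 943, the span of the collagen windows, 251 of 586, or 42.8%. These shares stand beside the collagen count for scale only, since the choice of windows used both lists. The share fell with rank over the whole list, from 92% of the first 100 windows to 22% of the last 100. The lists hold fewer windows than were called, so a site missing from a list may still have been a peak of lower rank in that condition.

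**Figure D1:**
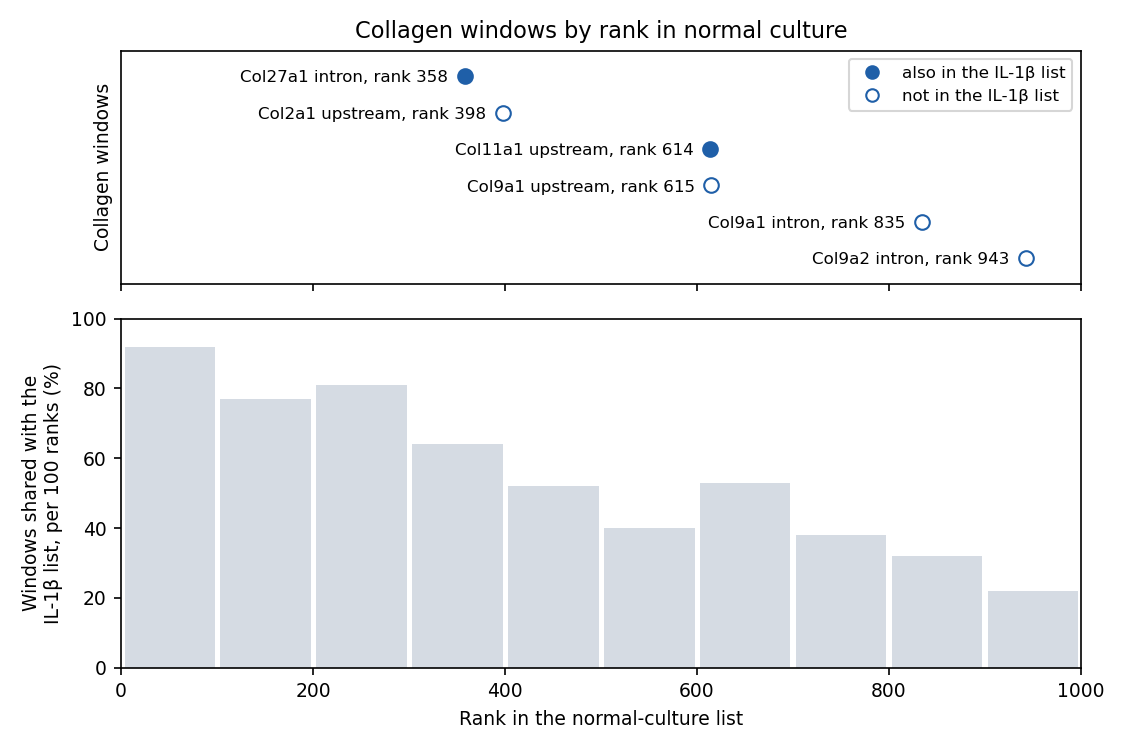
Upper panel, the 6 collagen windows of normal culture by rank, filled where the window was also in the IL-1β list and open where it was not; the height of a point has no meaning. Lower panel, the percentage of all windows shared with the IL-1β list in each 100 ranks, which fell from 92% to 22%; the shared Col27a1 and Col11a1 windows were at ranks 358 and 614.

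Col2a1, which encodes the single chain of collagen II, had its window at the promoter. The window lay on chromosome 15 from 97835195 to 97835295 at rank 398, outside the gene, with its centre 169 bp upstream of the transcription start site (TSS) of NM_031163, a minus-strand transcript of 52 exons. Against the starts of the GENCODE M1 transcripts of Col2a1 the centre was 90 to 179 bp upstream. It was the only one of the 6 sites within 500 bp of the TSS of its deposited transcript, against 14.9% of all windows in normal culture. The window was rich in G and C, at 71.3%, higher than 91.0% of the windows of its list (median 53.5%), and held 6 CpG.

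No Runx motif lay inside the Col2a1 window. The closest was a TGTGGT on the strand of the gene, 115.5 bp from the window centre and 63 bp beyond its edge, or 284.5 bp upstream of the TSS, with a TGTGGC nearer the window at 97.5 bp. The printed sequence shows both on the right as reverse complements. Within 500 bp of a GENCODE M1 start, 44.5% of the 272 windows in normal culture held a Runx motif, and of the windows farther away 70.5% did.

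The gene body of Col2a1 held none of the 1000 windows of either list. More peaks were called than listed, and the study describes significant Runx2 peaks at intron 6 of Col2a1. Those at intron 1 it describes as insignificant. A gene body without a listed window is thus not one without a called peak. Introns 1 and 6 are both known to hold a Sox9-bound enhancer. Intron 1 is 3802 bp long with 4 Runx motifs in the deposited transcript and 5117 bp with 8 in Col2a1-002. It had no window of the lists under either. Intron 6 also depends on the transcript, and the numbering covers different stretches of the gene that do not overlap. It is 619 bp with 0 Runx motifs in the deposited transcript, 141 bp with 0 in Col2a1-001 and 909 bp with 2 in Col2a1-002. The study's intron 6 reporter fragment covers the stretch of Col2a1-002. None of these stretches held a window of the lists. From 10 kb before to 10 kb after the gene, 49.7 kb in all, there were 40 Runx motifs, none of them in a window. The IL-1β list had its closest window 247.7 kb from Col2a1, at rank 954. The gene nearest to that window is called Pp11r in the list and Endou in GENCODE M1. In normal culture the next window from the gene was 88.7 kb away, given to Pfkm at rank 670, nearest to Senp1 in GENCODE M1 and not shared.

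Col9a1, which encodes the first chain of collagen IX, was the only one of the 5 genes with windows at separate sites, 61.9 kb apart, and neither was in the IL-1β list. The first, at rank 615 on chromosome 1 from 24176468 to 24176568, lay 8.02 kb upstream of the TSS of NM_007740, a transcript of 38 exons. The second, at rank 835 from 24238336 to 24238436, lay 53.8 kb downstream of that TSS in intron 31, an intron of 0.7 kb. Col9a1 has a second promoter inside the gene that gives a shorter chain. From the short-form start of Col9a1-002 in GENCODE M1 the first window was 25.5 kb upstream and the second 36.4 kb downstream. The closest IL-1β window to the first site was 979.0 kb away, given to 4933415F23Rik at rank 704.

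The Col9a1 windows differed in their Runx motifs. The intronic window held TGTGGT at 9.5 bp and TGCGGT at 2.5 bp to the left of its centre, both on the strand of the gene and starting 7 bases apart, and another TGTGGT began 1 bp beyond its right edge. It was the only one of the 6 sites with 2 or more Runx motifs in the window, which 14.8% of all windows in normal culture and 11.8% in IL-1β had. A pair 7 bases apart on the same strand, a spacing looked up after it was seen here, occurred in 1.2% and 1.0%. The upstream window had no Runx motif within 150 bp of its centre. It had the weaker TGTGGC 24.5 bp to the right of the centre and GGAATG, the word of TEAD factors, at 4.5 bp. On the minus strand ACAAAG, a word of Sox factors, lay at 21.5 bp and shared bases with the TGTGGC.

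Col9a2, which encodes the second chain of collagen IX, had 1 window, at rank 943 on chromosome 4 from 120713734 to 120713834. It was the last of the 6 in rank. It lay 1.85 kb downstream of the TSS of NM_007741, a transcript of 32 exons, in intron 2, which is 1.25 kb long. A TGTGGT on the strand opposite to the gene lay 11.5 bp to the left of the window centre, and ACAAAG lay 94.5 bp to the left, outside the window. In IL-1β the gene lay 63.8 kb from the closest window, at rank 751. The gene nearest to that window is called Smap1l in the list and Smap2 in GENCODE M1. The partner gene Col9a3, for the remaining chain of collagen IX, had no window within 10 kb in either list. Its region held 34 Runx motifs, or 0.77 per kb. The closest windows to it were 6430.7 kb away in normal culture (Stx16) and 7054.7 kb away in IL-1β (Tmepai).

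Col11a1, whose product is a chain of collagen XI, had a window in both lists about 2 kb upstream of its start. In normal culture it stood at rank 614 on chromosome 3 from 113731269 to 113731369, 2139 bp upstream of the TSS of NM_007729, a transcript of 67 exons. In IL-1β it stood at rank 644 from 113731218 to 113731318, 2190 bp upstream. The centre lay 51 bp farther from the gene in IL-1β, and the ranks differed by 30. Over all 551 shared windows the centres differed by a median of 20 bp (interquartile range 10 to 38), and 16.3% differed by 51 bp or more. The ranks of shared windows differed by a median of 141.0.

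The 50 bp common to both Col11a1 windows held a single TGTGGT, on the strand opposite to the gene, at 113731293 to 113731298. It was 23.5 bp to the left of the centre in normal culture and 27.5 bp to the right of the centre in IL-1β, so that the motif lay between the centres. The G and C content was 41.6% in the normal-culture window, the lowest of the 6 windows of that list, and 47.5% in the IL-1β window. Of all windows, 9.8% in normal culture and 29.5% in IL-1β were below these values. The next window along chromosome 3 was given to Olfm3, 807.9 kb from the gene, and was shared at ranks 382 and 353. Col11a2, the gene of a partner chain, had no window within 10 kb and 38 Runx motifs, and its closest windows were 614.6 kb away in both lists (Crebl1 and Tnxb).

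Col27a1, which encodes collagen XXVII, had the best rank of the collagens in normal culture and the other shared site. In normal culture it stood at rank 358 on chromosome 4 from 62972728 to 62972828, and in IL-1β at rank 650 from 62972722 to 62972822. The centres lay 6 bp apart. The ranks differed by 292, and 23.6% of all shared windows differed by that much or more. The site lay 96.3 kb downstream of the TSS of NM_025685, a transcript of 61 exons, in intron 37, which is 3.8 kb long. The nearest protein-coding start in GENCODE M1 was that of another gene, Orm1, at 32816 bp in normal culture and 32822 bp in IL-1β.

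The Col27a1 windows of both conditions lacked a Runx motif. The closest was a TGTGGT on the strand of the gene, 75.5 bp to the right of the centre in normal culture and 81.5 bp in IL-1β, which put it 23 and 29 bp beyond the edge. The word GGAATG lay 13.5 bp to the left of the centre in normal culture. The closest other window was 333.5 kb from the gene, a shared site given to Tnfsf15 at rank 537 in normal culture and to 1700018C11Rik at rank 330 in IL-1β.

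**Figure D2:**
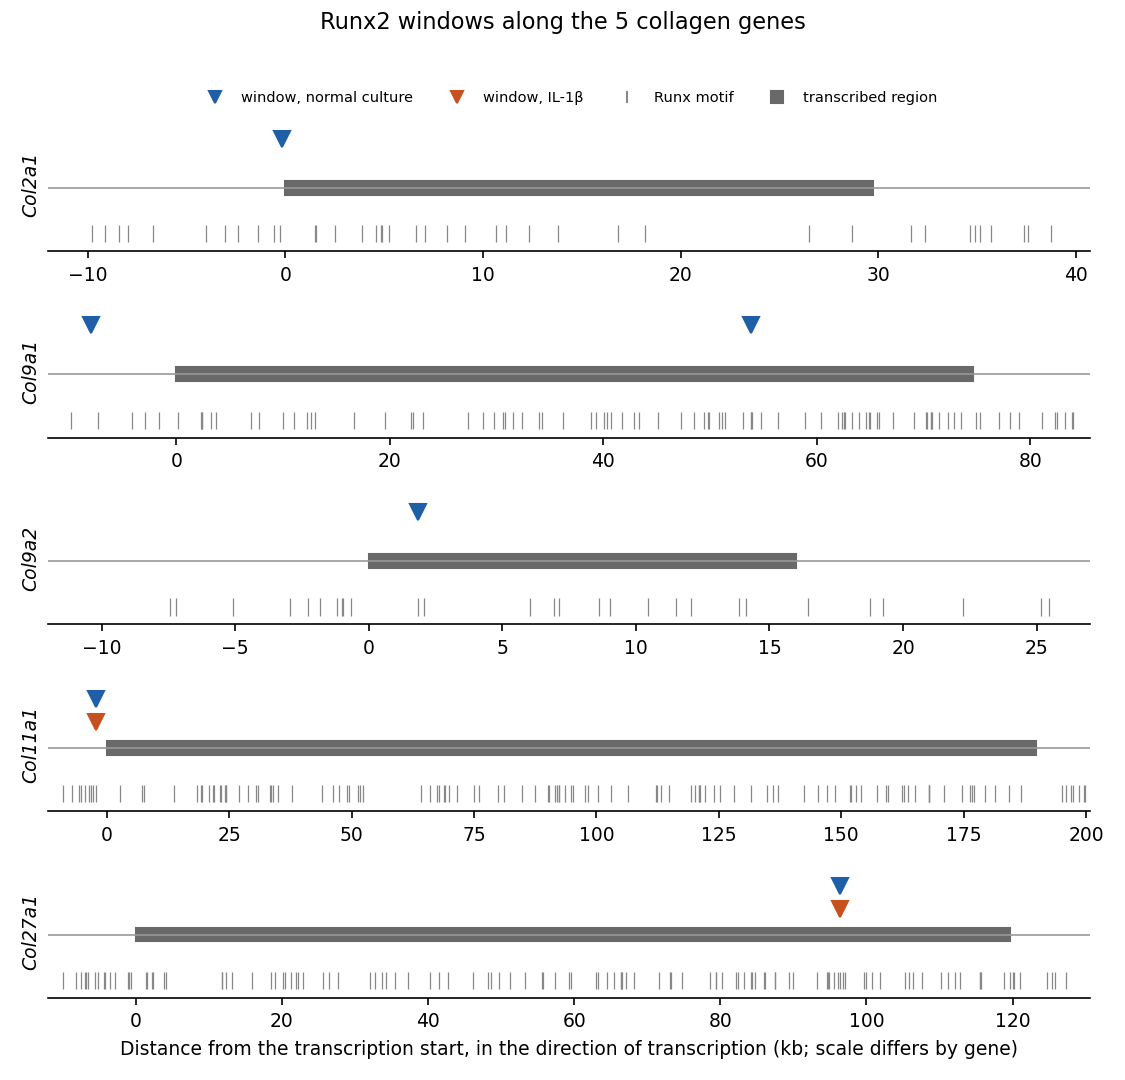
Windows of normal culture (blue) and IL-1β (orange) and Runx motifs (ticks) along each gene, by distance in kb from the start of the deposited transcript in the direction of transcription, with 10 kb on each side. The Col11a1 and Col27a1 sites have both colours, the Col2a1, Col9a1 and Col9a2 sites blue only, and the windows take in 4 of the motifs in normal culture.

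Across the 6 sites, 3 lay inside the deposited transcript (Col27a1, Col9a1 intron, Col9a2), against 26.4% of all windows in normal culture, and 3 lay upstream (Col2a1, Col11a1, Col9a1 upstream). Along each gene with its 10 kb flanks, Runx motifs numbered 0.81 per kb for Col2a1, 0.96 for Col9a1, 0.78 for Col9a2, 0.57 for Col11a1 and 0.85 for Col27a1. No genome-wide density is given beside these, so they do not set the genes apart. Of the 91 motifs of the Col9a1 region 2 lay in a window of normal culture, of the 28 of Col9a2 1, of the 120 of Col11a1 1, and of the 119 of Col27a1 0. In IL-1β the single motif of Col11a1 was the only one of these in a window.

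A Runx motif lay inside the window at 3 of the 6 sites (Col11a1, Col9a1 intron, Col9a2), against 63.4% of all windows in normal culture and 59.7% in IL-1β. In stretches of the same length 1000 bp to each side of the windows the shares were 8.15% and 9.4%. Within 150 bp of the centre 5 of the 6 sites had one, against 80.2% and 78.5% of all windows. The exception was Col9a1 upstream. Around points 1000 bp to each side of the windows, 22.8% and 23.2% had one within 150 bp. With the weaker words TGTGGC and TGCGGC counted, 4 of 6 windows had a word, against 76.9% and 73.1%. Over all windows with a motif within 150 bp, the median distance of the closest was 21.5 bp (normal culture) and 24.5 bp (IL-1β). For the points to the side it was 66.5 and 64.5 bp. In normal culture the closest motifs of Col2a1 and Col27a1 lay at 115.5 and 75.5 bp.

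**Figure D3:**
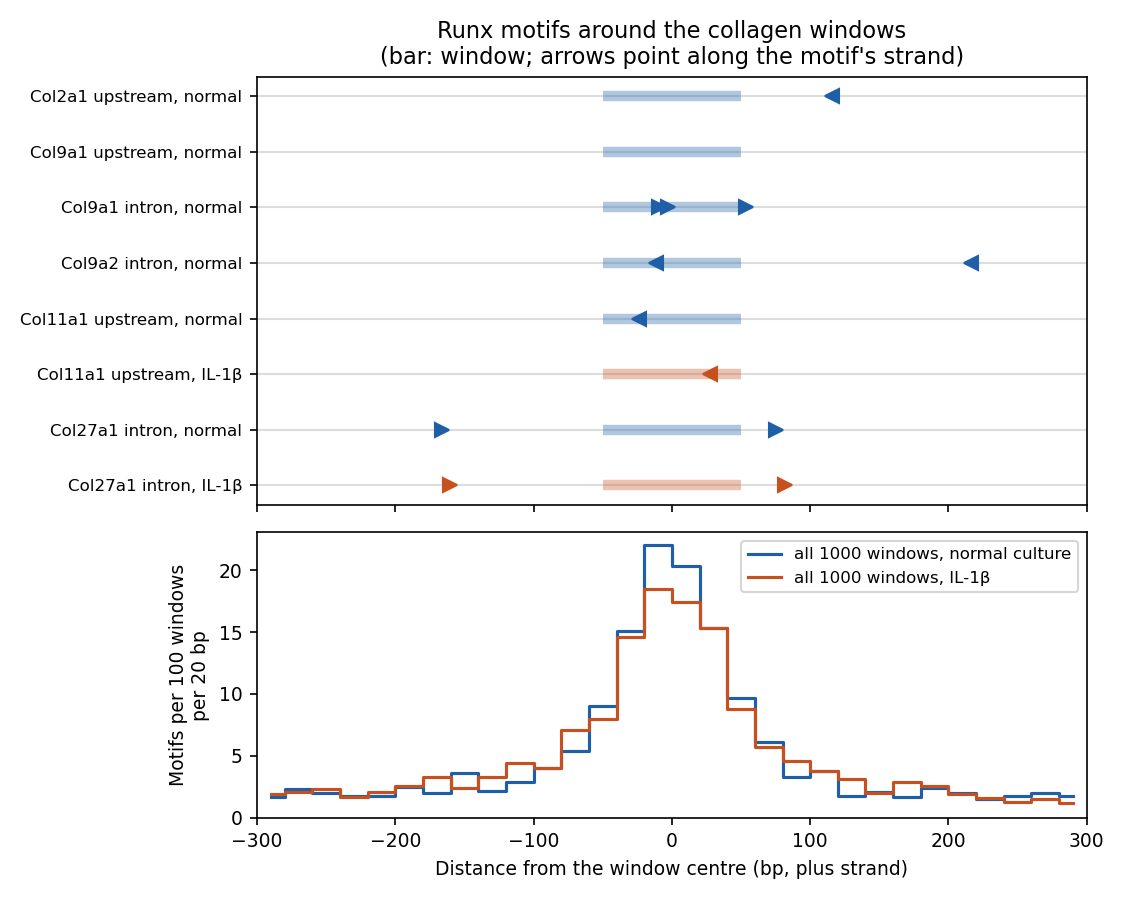
Upper panel, Runx motifs (arrowheads pointing along their strand) around the centre of each collagen window (bar), in bp on the plus strand. Lower panel, Runx motifs per 100 windows in bins of 20 bp over all 1000 windows of each list, with the peak at the centre; the Col2a1 and Col27a1 motifs lie outside their bars and the Col9a1 upstream site has none.

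Words of other factors were searched on both strands. AP-1, a dimer of Fos and Jun proteins that inflammatory signals activate, binds TGAGTCA or TGACTCA, and none of the 6 sites had it, against 6.5% of all windows in normal culture and 6.2% in IL-1β. The Sox words ACAAAG or ACAATG were in 1 of the 6 (7.1% and 8.5% of all windows, and 12.6% and 12.2% of the stretches to the side). GGAATG was in 2 of the 6 (13.0% and 11.8%). A word in a window describes the sequence and does not show that a factor was bound. All 70 words of 32 bases in each of the 8 windows occurred once in the mm9 genome, so reads from these windows have a single exact place to align.

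Among the 44 collagen genes of the mouse, the normal-culture list named 9 (20.5%) and the IL-1β list 6 (13.6%). Of all protein-coding genes they named 4.06% and 4.0%. The collagen shares include cartilage genes chosen because a list named them, so their excess and their difference are partly set by that choice. The 9 in normal culture were the 5 cartilage genes and Col5a3 (rank 630), Col5a1 (651), Col4a2 (860) and Col12a1 (948). The 6 in IL-1β were Col11a1, Col27a1, Col5a3 (555), Col3a1 (594), Col16a1 (597) and Col8a2 (917). Without the 5 cartilage genes each list named 4 collagens, so that count did not differ between the lists. The shares were not matched for gene length.

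Of these other collagens Col5a3, a chain of the fibrillar collagen V that is related to collagen XI, was the only one shared, at a site with a Runx motif beyond the end of the gene, 49.5 kb from its start. Col5a1 (intron 4), Col4a2 (intron 4, a basement membrane chain) and Col12a1 (exon 60, with a Runx motif, a fibril-associated collagen) were in the normal-culture list alone. Col3a1 (intron 1, with a Runx motif, 2.44 kb from its start and a chain of the fibrils of skin and vessels), Col16a1 (intron 42) and Col8a2 (intron 2) were in the IL-1β list alone. Col10a1, the collagen of hypertrophic cartilage, had no window within 10 kb in either list. Its region held 18 Runx motifs, and the closest windows were 92.6 kb away in both lists, given to Tspyl4 at ranks 270 and 323.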

How the data were processed

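The authors carried out Runx2 ChIP-seq in primary mouse chondrocytes, with 1 anti-FLAG library per condition and its input as the control. The submitters' processing notes name Bowtie2 2.2.2 and the genome build mm9, and the study's methods name CisGenome for peak calling. The authors deposited 2 lists of 1000 windows each with a row number, coordinates and 1 nearest transcript, and with no score or read count, so no depth or counting interval is given. Windows were read as 1-based, 101 bases each, since the lists do not state the origin. The deposited transcripts count from 0, and adding 1 matched 99.5% to 99.6% of inner exon boundaries of GENCODE M1. The IgG libraries were not analysed here.

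The genes named are the 5 members, the partners Col9a3, Col11a2 and Col10a1, every other collagen in a list, genes given to a member window, and the closest other window within 1 Mb. The members and lists were chosen with earlier results of these data known. Sequence was read with pysam 0.24.0, and figures were drawn with matplotlib 3.10.9. Overlaps and counts were made in Python 3.11.15 with numpy 2.4.6, pandas 2.3.3 and numba 0.67.0 (copy number). Window overlaps, centre distances and Runx motif hits were checked on simulated data, and the other steps were not. Protein-coding symbols (21896) came from RefSeq (GRCm38.p6), for names only. Alternatives were another gene assignment by GENCODE M1 (22380 protein-coding genes), the first 500 windows, other overlaps, motif words and distances.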

Additional observations from a re-analysis of the deposited data

How the results depend on the processing

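With each list cut to its first 500 windows, the collagen windows fell to 2 in normal culture (from 6) and 0 in IL-1β (from 2), the shared ones to 0 (from 2), and the collagen genes named to 2 (from 9) and 0 (from 6). With the nearest GENCODE M1 TSS in place of the deposited gene, IL-1β kept 1 window (from 2), since the Col27a1 site then belonged to Orm1. A Runx motif within 150 bp of the centre was found at 5 sites (from 3), and 3 sites lay within 5000 bp of a TSS (from 1 within 500 bp). The other 13 alternatives, among them overlap of 50 bp, centres within 200 and 1000 bp, and 0-based window starts, moved no count by over 1.5 times. No paired analysis was possible because each condition has 1 library, and none could be left out.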
